A study of Rattus norvegicus with 16 samples.

Results

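N4-acetylcytidine (ac4C) peaks of the normal rat dorsal horn were described from the 3 control replicates of a study of cancer-induced bone pain (CIBP, bone cancer pain). The dorsal horn is the part of the spinal cord that receives sensory and pain input. Each control replicate was a library immunoprecipitated (IP) for ac4C and its input library, from wild-type rats without bone cancer, and gave 1 deposited peak list. These 6 control libraries were taken from 16 in the series, and genes were described by how many of the 3 control lists held a peak in them. A control peak was listed in 3231 genes, of 29990 genes with a peak in any of the 6 ac4C lists of the series. The first bone cancer pain list alone held 29130 genes. With peaks limited to a false discovery rate of at most 0.05, the counts were 2296 of 3805 genes. The remaining libraries, all from rats with bone cancer pain, were 3 further ac4C pairs and another RNA immunoprecipitation (RIP) of 2 IP and 2 input libraries. The RIP table supplied the symbol, the biotype and an input signal for 8671 genes, so those input signals come from bone cancer pain tissue and not from the controls. The sources used here do not say whether a replicate was 1 rat or pooled tissue.

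ac4C is an acetylated form of the RNA base cytidine, made by the acetyltransferase Nat10. It is long known in the RNA of the small ribosomal subunit and in transfer RNA, where Thumpd1 assists the enzyme, and it has been reported in messenger RNA, where it has been linked to stability and translation. In an ac4C RIP experiment, fragments carrying the base are pulled down with an antibody, and a peak is a stretch of a transcript covered more deeply in the IP than in the input.

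The control lists differed in length and in how their peaks were distributed. Controls 1, 2 and 3 held 1208, 1802 and 1418 peaks in 1113, 1573 and 1256 genes, or 1314 ± 235 genes (SD, n = 3). At a false discovery rate (FDR) of at most 0.05, 916, 1074 and 1003 peaks were left, and the lists were closer in length. The median fold enrichment, the authors' ratio of IP over input for each peak, was 12, 13 and 16.7. A peak covered a median of 180 exonic bp in each of the 3 lists, and 53.3%, 52.4% and 55.0% of peaks spanned more than 1 exon block. Many peaks carried the same fold and p-value as others of their list. The commonest pair was a fold of 13.0 in control 2, held by 17.6% of its peaks at an FDR of 0.0794, and a fold of 11.2 in control 3, held by 19.4% at an FDR of 0.0617. In control 1 it was a fold of 16.0, held by 4.80% of peaks at an FDR of 0.114. Folds within 0.5% of a whole multiple, up to 20, of 8, 6.5 and 5.6 made up 25.7%, 45.2% and 56.1% of peaks in controls 1, 2 and 3. The commonest folds are included in these shares. Close folds of a gene in several controls are read with this limit. Read totals were not used here, so the depth behind a peak is unknown.

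Most genes had a peak in only 1 of the 3 control lists. Of the 3231 genes, 2609 (80.7%) were in 1 list, 533 (16.5%) were in 2 lists and 89 (2.75%) were in all 3. At the FDR limit, 1935, 311 and 50 genes were in 1, 2 and 3 lists, and all of these 50 genes were among the 89. Controls 1 and 2 shared 276 genes, which was 24.8% of control 1 and 17.5% of control 2. Controls 1 and 3 shared 224 genes (20.1% and 17.8%), and controls 2 and 3 shared 300 genes (19.1% and 23.9%). Each pair of lists therefore had between 10.4% and 11.9% of its combined genes in common. Over the 8671 genes of the RIP table, 31.2% had a control peak, 6.60% had one in at least 2 lists and 0.923% had one in all 3. At the FDR limit these shares were 22.7%, 3.89% and 0.507%.

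**Figure D1:**
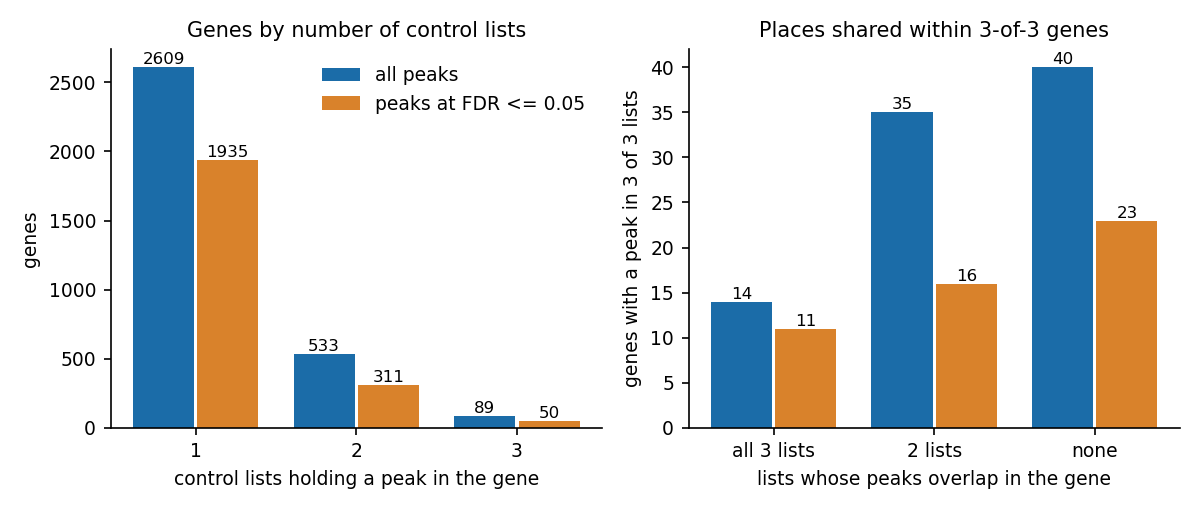
Left, number of genes (y axis) with a peak in 1, 2 or 3 control lists, for all deposited peaks (blue) and peaks at an FDR of at most 0.05 (orange). Right, number of genes found in 3 of 3 lists whose peaks overlap in all 3 lists, in 2 lists or not at all. Genes in 1 list make up 2609 of 3231, and 40 of the 89 genes in 3 lists have no overlapping peaks.

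A gene found in several lists often had its peaks at different places. Peaks of the same gene and strand were counted as 1 place where their exon blocks shared at least 1 bp. Of 4244 places, 4077 (96.1%) were in 1 list, 153 were in 2 and 14 were in all 3. Within the 89 genes, 14 had a place common to all 3 lists, 35 had one common to 2 lists only, and 40 had none. For these 89 genes the nearest peaks of a pair of lists lay a median of 2101, 3070 and 1077 genomic bp apart (controls 1 and 2, 1 and 3, 2 and 3), introns included. Between 12 and 13 peaks had identical coordinates in each pair of lists.

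The 14 places found in all 3 controls belonged to 7 genes that the RIP table names and 7 that it does not. Ranked by the smallest of its 3 folds, the first place lay in Slc35e2b, a member of a solute carrier family of membrane transporters, at rn6 chr5:173046075-173046194 on the plus strand. It had folds of 88.2, 117 and 374 in controls 1, 2 and 3, the same coordinates in each, and an overlapping peak in all 3 bone cancer pain lists. Usp34, a ubiquitin-specific protease, had a place within chr14:108143992-108147160 with folds of 61.3, 13.6 and 24.2. The order of the controls differed between these genes, with control 3 highest in Slc35e2b and control 1 highest in Usp34. Hsp90ab1, a cytosolic HSP90 chaperone, had folds of 3.48, 2.07 and 34.5 at chr9:17820355-17820594. Its input signal was 59.2, against a median of 3.35 over the RIP table. Pkp4, a plakophilin of cell junctions, had folds of 4.48, 37.5 and 29.8, and its 3 peaks had only 1 bp in common. Ak5, a brain adenylate kinase, had folds of 2.91, 8.30 and 50.2, and Phf3, a protein with a PHD finger, had 2.91, 1.74 and 11.2. At their places Pkp4, Ak5 and Phf3 had no overlapping peak in any bone cancer pain list. In all, 4 of the 14 places had identical coordinates in the 3 controls, and 11 of the 14 were at or under the FDR limit in each.

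The 89 genes found in all 3 controls were mostly protein-coding, as was the RIP table, with 8420 of its 8671 genes. The RIP table names 80 of them, of which 79 are listed as protein-coding and Syne1 as a processed transcript. In 46 of the 89 genes, at least 1 list held 2 or more peaks. The mean was 1.30 peaks per gene and list, against 1.09 for genes in 1 list. The smallest of a gene's 3 strongest folds ranged from 1.18 in Iars, which encodes isoleucyl-tRNA synthetase, through a median of 4.01 to 88.2 in Slc35e2b. In 39 of the 89 genes, at least 1 list held no peak at the FDR limit, and in 43 the strongest peak of at least 1 list was over it. The 25 named genes with the highest smallest fold fell into several functional kinds. The folds given next are those of the strongest peak of the gene in controls 1, 2 and 3, which need not lie at the same place.

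Among genes of RNA handling, Snrnp200, the helicase that unwinds U4 and U6 RNA in the spliceosome, had folds of 42.4, 26.1 and 22.3. Eif4g3, a scaffold of cap-dependent translation initiation, had 20.7, 31.0 and 30.1. Exd2, a nuclease, had 120, 39.1 and 156, and Snd1, a component of RNA silencing complexes, had 7.59, 23.9 and 11.2. The first of these had a spread of less than 2-fold between its highest and lowest control, and so did Eif4g3. Nup153, a nucleoporin of the nuclear basket, had 28.1, 52.2 and 16.7.

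Ubiquitin and protein quality genes made up a further group. Besides Usp34, whose strongest peaks had folds of 106, 16.3 and 24.2, the ubiquitin ligase Ankib1 had folds of 28.1, 45.7 and 140. Anapc1, the largest subunit of the anaphase-promoting complex, had 12, 13.0 and 145. Bag6, a chaperone of tail-anchored proteins, had 17.6, 13.0 and 128. Dcaf8, a substrate receptor of cullin ligases, had 10.7, 13.0 and 11.2, of which the last 2 equal the commonest folds of their lists. In Anapc1 and Bag6 control 3 was far above the other controls, whereas the 3 values of Dcaf8 were close together.

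Cytoskeletal and neuronal genes were also present. Ahnak, a giant scaffold protein, had folds of 29.1, 189 and 83.7, and its relative Ahnak2 had 9.35, 13.0 and 11.2. Syne1, which links the nucleus to the cytoskeleton, had 9.73, 9.79 and 16.7. Myo9a, an unconventional myosin, had 6.68, 13.0 and 14.0. In each of these 4 genes the highest control was control 2 or control 3, and the length of their transcripts was not analysed here. Chrna7, the homomeric alpha7 nicotinic acetylcholine receptor, had 16.0, 16.3 and 100, at an input signal of 1.34 that placed it in the lowest of 10 equal groups of the RIP table. Tanc2, a postsynaptic scaffold, had 168, 13.0 and 39.1, and Zfyve27, or protrudin, which promotes neurite outgrowth, had 377, 13.0 and 106. Rab3gap2, a regulator of Rab GTPases, had 10.7, 19.6 and 27.9. The folds of a gene thus varied over 10-fold between controls in Zfyve27 and Tanc2, with control 1 the highest in both.

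The rest of the 25 were genes of metabolism and of gene regulation. Acaca, acetyl-CoA carboxylase of fatty acid synthesis, had 32.1, 35.9 and 39.1, a narrow range at folds above 30, but at a different place in each control. Ptgr2, a prostaglandin reductase, had 16.5, 6.52 and 72.6. Kmt2c, a histone H3 methyltransferase, had 80.5, 26.1 and 11.2. Peg3, an imprinted zinc finger gene, had 51.6, 9.88 and 38.1 and the high input signal of 56.5. Zfp84, another zinc finger gene, had 8.01, 13.0 and 11.2, and it was the only gene of the 89 with no peak at the FDR limit in any control.

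**Figure D2:**
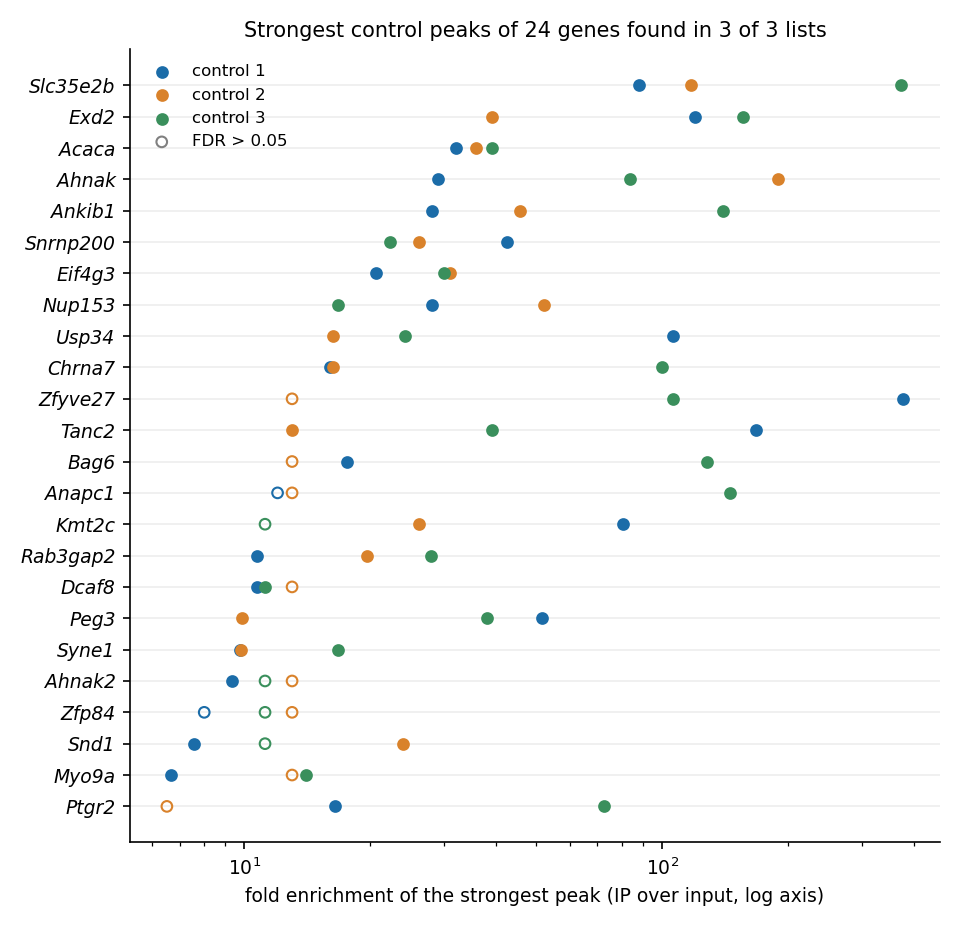
Fold enrichment of the strongest peak (x axis, log scale) of 24 of the 25 genes with the highest smallest fold among named genes in 3 of 3 control lists, 1 row per gene and 1 point per control. Open points are peaks over the FDR limit of 0.05. The points of Acaca lie between 32.1 and 39.1, and those of Zfyve27 between 13.0 and 377.

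Gene lists were used to describe which kinds of transcript recurred. Because the lists and their members were chosen with earlier results of these data known, their shares are a description and not a test. For each of 39 lists, 24 of pathways or families and 15 of cell type markers, the genes with a row in the RIP table were counted as measured. The median number of control lists per gene over the RIP table was 0, and the 6.60% of its genes in at least 2 lists is the level against which the following counts are read. The list of giant cytoskeletal linkers and ankyrins had the highest share among lists with at least 10 measured genes. A peak in at least 2 control lists was found in 14 of its 26 measured genes (53.8%), and 7 of these were in all 3. Its median was 2 lists and its median input signal was 5.64. At the FDR limit the count was 11, and at a fold of at least 10, which 2.62% of the RIP table reached in 2 lists, it was 5. In both remaining lists it was 11, 9 and 8 without control 1, 2 and 3. Macf1, a linker of microtubules and actin, had strongest folds of 1.86, 29.4 and 50.2. Plec, or plectin, which ties intermediate filaments to other structures, had 4.01, 32.6 and 61.4. The ankyrins Ank2 (5.83, 1.82 and 11.2) and Ank3 (2.77, 13.0 and 167), which anchor channels in the axonal membrane, were likewise in all 3 lists. Dst, or dystonin, had peaks in controls 2 and 3 only, with folds of 2.86 and 35.4, and its 9 peaks in control 3 were the most of any gene in a control list.

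Motor proteins of axonal transport, listed together with adaptors, had the next highest share. Of 30 measured genes of kinesins, dyneins, dynactin and adaptors, 13 (43.3%) were in at least 2 control lists and 11 at the FDR limit. Only 1 was at a fold of at least 10. The adaptors Trak1 and Trak2 and the scaffold Spag9 were among both the 13 and the 11. In both remaining lists they were 9, 6 and 4 without control 1, 2 and 3. Their median input signal was 10.9 and their median number of lists was 1. Kif5a, the neuronal heavy chain of conventional kinesin, had folds of 4.84, 2.07 and 15.6. Kif21a, a kinesin of microtubule growth control, had 2.20, 5.59 and 251, and Spag9, a scaffold that couples kinase signalling to motors, had 4.13, 6.52 and 35.4. In Kif21a and Spag9 control 3 was highest and control 1 lowest. Among genes in 2 lists, Kif1a, the motor of synaptic vesicle precursors, had folds of 8.82 in control 1 and 119 in control 3. Dync1h1, the dynein heavy chain, had 4.35 in control 2 and 11.2 in control 3.

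Microtubule and intermediate filament genes had 5 of 24 measured genes (20.8%) in at least 2 lists at a median input signal of 29.8, and the count was also 5 at the FDR limit and 1 at a fold of at least 10. Map4, a microtubule-associated protein, was in 3 lists with folds of 1.28, 10.3 and 11.2. Map1a and Map1b, which stabilise neuronal microtubules, and Nefm, the medium neurofilament chain, had peaks in controls 1 and 3. The folds of Nefm were 2.64 and 2.61, close to each other and low, at an input signal of 126. Mapt, or tau, had 8.70 in control 2 and 72.6 in control 3.

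Ion channel genes were in several controls in each of 3 families. Of 11 measured sodium channel genes, 9 had a control peak and 4 (36.4%) had one in at least 2 lists, or 3 at the FDR limit and 2 at a fold of at least 10. Scn3b, an accessory subunit, had folds of 3.21, 13.0 and 100. Scn8a, the channel of nodes of Ranvier, had 11.8 in control 1 and 32.6 in control 2. Scn1a had 6.52 in control 2 and 22.3 in control 3, and its strongest peaks there spanned the same interval. Of 14 calcium channel genes, 3 were in at least 2 lists, among them Cacna2d2, an alpha2delta subunit, with 60.1, 3.26 and 75.4. Cacna1a, the pore of P/Q-type channels, had 96.2 in control 1 and 137 in control 2. Of 27 potassium and HCN channel genes, 5 (18.5%) were in at least 2 lists, or 3 at the FDR limit and 2 at a fold of at least 10. Kcna2, an axonal channel, had 11.2 in control 2 and 59.5 in control 3. Kcnc1, a channel of fast-spiking neurons, had 5.44 and 335 in the same controls, where its strongest peaks had the same coordinates.

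The list of GABA and glycine receptors and transporters and that of glutamate receptors had shares in at least 2 lists above the 6.60% of the RIP table. At the FDR limit, where the RIP table had 3.89%, the glutamate receptor list had 0 genes. Of 20 measured genes of GABA and glycine receptors and transporters, 3 (15%) were in at least 2 lists and each was so at the FDR limit, but none at a fold of at least 10. Glra1, the glycine receptor subunit of adult spinal cord, had folds of 19.6 in control 1 and 9.03 in control 2. The chloride importer Slc12a2 had 9.06 in control 2 and 9.14 in control 3. The glycine transporter Slc6a9 had 2.37 in control 1 and 7.82 in control 3. Of 20 glutamate receptor genes, Gria2 (4.35 in control 2 and 11.2 in control 3) and Grm5 (48.1 in control 1 and 9.79 in control 2) were in 2 lists, and neither was so at the FDR limit. None of these 5 genes was in all 3 controls. Among TRP, purinergic, nicotinic and acid-sensing receptors, 2 of 11 measured genes were in at least 2 lists, Chrna7 and Trpm7, a channel fused to a kinase, and 1 was at the FDR limit. Of 5 measured neurotrophin genes, Sort1, or sortilin, was in 3 lists (14.4, 3.26 and 3.35) and Ntrk2, the receptor of brain-derived neurotrophic factor, was in 2. Neither was in 2 lists at the FDR limit. Postsynaptic scaffolds and presynaptic release genes had a control peak in 24 of 42 measured genes, but only Shank1 was in 2 lists and no gene was in 2 at the FDR limit. No measured neuropeptide or opioid gene of 13 was in more than 1 control list, and 4 were in 1.

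Regulators of chromatin, splicing and protein turnover lay above the RIP table level. The counts in at least 2 lists were 10 of 45 for chromatin remodellers and histone modifiers (22.2%), 10 of 49 for splicing factors and RNA helicases (20.4%) and 10 of 37 for ubiquitin-specific proteases and large E3 ligases (27.0%). At the FDR limit these counts were 6, 7 and 7, and at a fold of at least 10 they were 5, 4 and 5. Chd4, a remodeller of the NuRD complex, had folds of 6.16, 9.79 and 114, and its relative Chd3 had 4.81, 9.79 and 27.9. Srrm2, a spliceosome-associated protein of nuclear speckles, had 85.5, 4.89 and 14.9. The large ligase Ubr4 had 69.1, 2.17 and 39.1, and the protease Usp33 had 21.4, 3.73 and 3.10. In these 5 genes the control with the highest fold was control 1 or control 3. The HSP90 and HSP70 chaperones had 4 of 15 in at least 2 lists, or 2 at the FDR limit, among them Hspa5, the chaperone of the endoplasmic reticulum, at 3.26 in control 2 and 3.10 in control 3.

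Cytosolic ribosomal protein genes, a list with a high median input signal, had a peak in several controls in 1 case. Only Rpl7 of 59 measured genes (1.69%) was in at least 2 lists, with folds of 39.1 in control 2 and 11.2 in control 3, and it was in 1 list at the FDR limit. A peak in any control list was found in 16 of the 59 (27.1%), close to the 31.2% of the RIP table. The median input signal of the list was 11.8, against 3.35 over the RIP table, and that of Rpl7 itself was 3.63. Oxidative phosphorylation had 2 of 35 genes in at least 2 lists. They were Cyc1 (6.52 in control 2 and 5.58 in control 3) and Ndufb9 (46.3 in control 1 and 4.36 in control 2). Translation factors had 2 of 32 (Eif4g3 and Eif4g1), cholesterol synthesis had 1 of 22 (Sc5d), signalling kinases had 1 of 25 (Pik3ca) and cytokines, chemokines and VEGF had 1 of 17 (Il6st). The oxidative phosphorylation and translation lists had 1 gene each at the FDR limit, and the signalling list had 0. Among 20 measured enzymes and readers of other RNA modifications, Zc3h13, a member of the m6A writer complex, was in all 3 lists with folds of 40.1, 5.44 and 16.7, and no other gene was in more than 1. Thumpd1 was measured and had no control peak, and Nat10 was not analysed here.

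**Figure D3:**
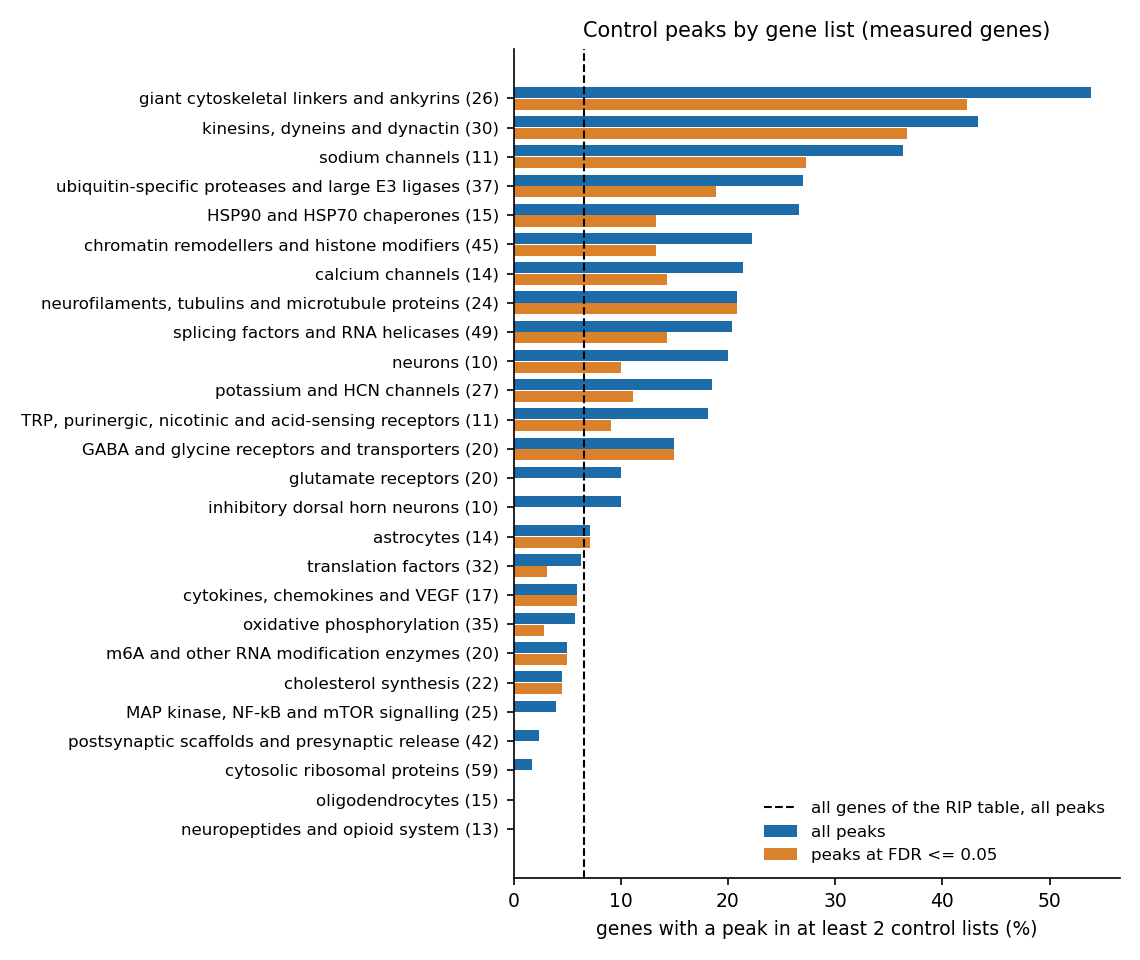
Share of measured genes with a peak in at least 2 control lists (x axis, percent) for each list with at least 10 measured genes (number in brackets), for all peaks (blue) and peaks at an FDR of at most 0.05 (orange). The dashed line is the 6.60% of all genes in the RIP table, for all peaks. Giant linkers reach 53.8% and cytosolic ribosomal proteins 1.69%.

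Cell type markers showed peaks in neuronal and glial transcripts. In bulk tissue, fewer cells of a type and less RNA per cell cannot be told apart. Over the RIP table, 31.2% of genes had a control peak. Among 10 measured neuron markers, 8 had one, and Rbfox3 and Nefm were in 2 lists. Of 8 measured markers of excitatory dorsal horn neurons, 2 were in 2 lists. They were the glutamate transporter Slc17a6 (5.59 in control 2 and 13.0 in control 3) and the matrix protein Reln (16.0 in control 1 and 32.6 in control 2). Of 10 inhibitory markers, the GABA-synthesising enzyme Gad1 (39.5 in control 1 and 6.52 in control 2) was in 2 lists. At the FDR limit, Nefm and Slc17a6 were in 2 lists, and Rbfox3, Reln and Gad1 were in 1. Astrocyte markers had a peak in 8 of 14 genes, with only Gja1, a gap junction protein, in 2 lists, at 1.68 in control 1 and 2.52 in control 2. Oligodendrocyte markers had a peak in 6 of 15 genes and none in 2 lists, at a median input signal of 37.5. Of 8 measured oligodendrocyte precursor markers, 2 (25%) had a control peak. They were Olig2, in 1 list, and Ptprz1, in all 3 lists with folds of 3.56, 9.21 and 72.6. Microglial (9 measured), endothelial (5 measured) and pericyte markers (5 measured) had 1 gene each with a peak, in 1 list. None of the 7 measured markers of Schwann cells and sensory ganglia and none of the 5 of meningeal fibroblasts had a control peak.

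Whether a gene had a control peak moved with its input signal. The genes of the RIP table were split into 10 equal groups by the mean of its 2 input libraries. A peak in any control list was found in 15.9% of the group with the lowest signal and in 44.6% and 44.5% of the 2 highest groups. For at least 2 lists the share went from 1.5% to 13.1%, and for all 3 lists the number of genes went from 2 to 18. Each control showed this, from 5.07% to 17.1% in control 1, 8.76% to 18.9% in control 2 and 3.80% to 23.8% in control 3. The median input signal was 2.94 for genes without a control peak, 4.19 for genes in 1 list, 5.21 for those in 2 and 5.79 for those in 3. Its part in the counts of the gene lists was not tested. Among lists of at least 10 measured genes with high signals, the ribosomal and oligodendrocyte lists had counts in at least 2 lists of 1 of 59 and 0 of 15. The neuron, astrocyte and oxidative phosphorylation lists, with median signals of 67.5, 52.4 and 12.7, had 2 of 10, 1 of 14 and 2 of 35. The ribosomal and oligodendrocyte shares in any list were 27.1% and 40%, against 31.2% over the RIP table. Both were below the 44.6% and 44.5% of the 2 highest groups, in which their median signals lie. The motor protein list and the microtubule and intermediate filament list, also with high signals, had 13 of 30 and 5 of 24. Chrna7 and Slc35e2b had low signals and peaks in every control, whereas 18 genes in all 3 lists were in the highest group.

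**Figure D4:**
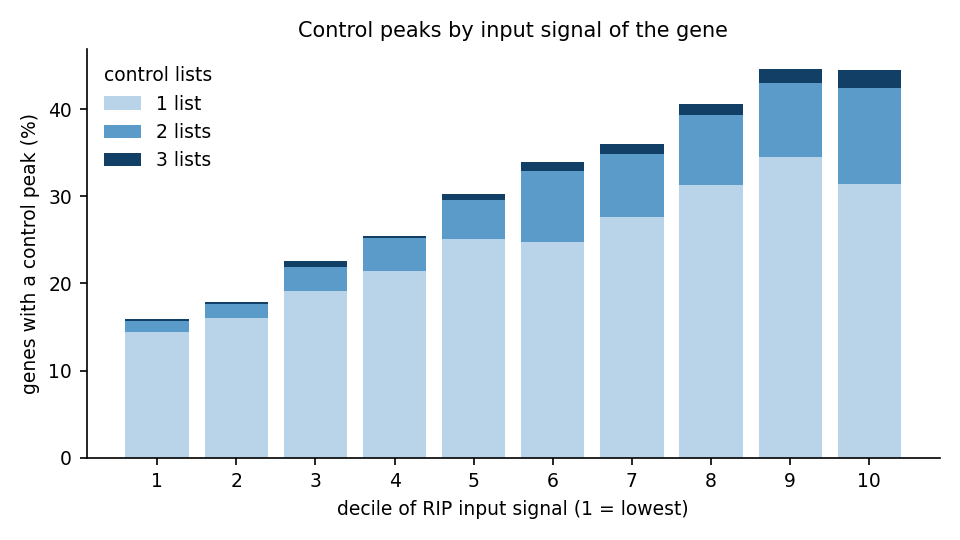
Percent of genes with a control peak (y axis) in each of 10 equal groups of the RIP table by mean RIP input signal (x axis, 1 is the lowest), with genes in 1, 2 and 3 control lists stacked. The total goes from 15.9% to 44.5%.

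Peaks of recurrent genes did not have the higher folds. In each list, peaks of genes that another control list also held were set against peaks of genes in that list alone. Their median folds were 8.82 against 16.0 in control 1, 8.70 against 13.0 in control 2 and 15.25 against 16.7 in control 3. The median was lower for recurrent genes in 3 of 3 lists, with a mean log2 ratio of -0.52 (exact sign-flip permutation test, two-sided, p = 0.25, the smallest that 3 lists can give). The share of peaks at the FDR limit was the higher for recurrent genes, at 82.4% against 71.7%, 64.2% against 57.3% and 72.2% against 69.9%. Peaks with a fold and p-value equal to the commonest pair of the list made up 3.44% against 8.61%, 13.9% against 24.4% and 20.7% against 22.5%. Without control 1, the median was lower in 1 of the 2 remaining lists.

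**Figure D5:**
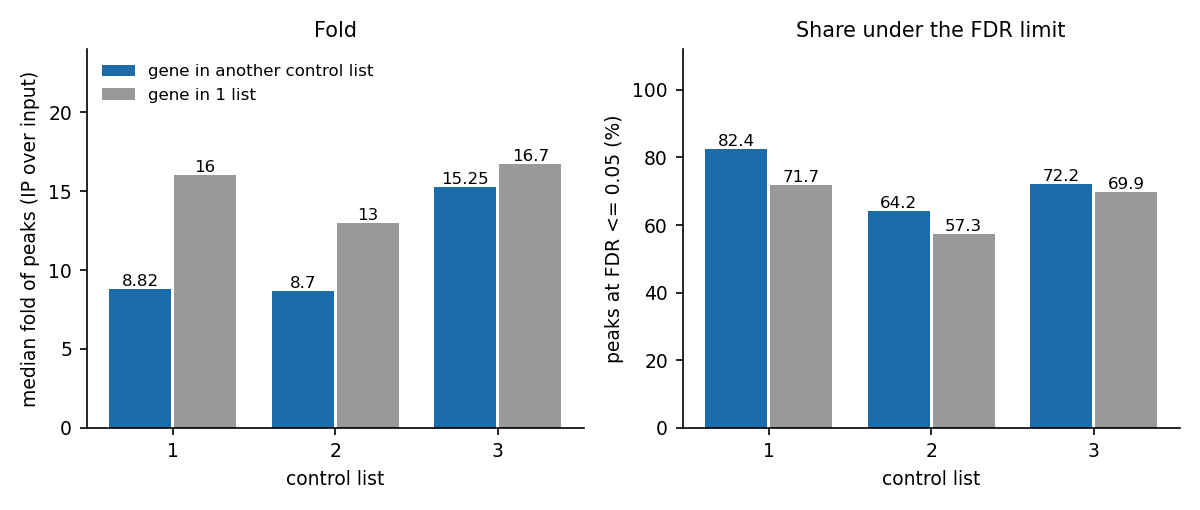
Median fold of peaks (left, y axis) and percent of peaks at an FDR of at most 0.05 (right, y axis) in each control list, for genes that another control list also holds (blue) and genes in that list alone (grey). In control 1 the median folds are 8.82 and 16.0.

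The peaks with the highest folds were found in 1 control each. In control 1 the highest fold was 1170 in Otud7b, a deubiquitinase, at chr2:198298016-198298225. Otud7b also had a peak in control 2, at a fold of 13.0 and at another place. In control 2 the highest folds were 313 in Coa5, a cytochrome c oxidase assembly factor, 235 in Sept8, a septin, and 228 in Trim23, a ubiquitin ligase. In control 3 they were 709 in Mtmr7, a myotubularin phosphatase, and 542 in Lrrc4c, a synaptic adhesion protein of axons. None of the 3 highest peaks of each list, 3 of them in genes without a symbol, overlapped a peak of another control.

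Of the 89 genes in all 3 controls, 30 (33.7%) were also in all 3 bone cancer pain lists, and 8 (8.99%) were in none of them. Among genes in 1 and in 2 control lists, 3.76% and 8.44% were in all 3 bone cancer pain lists, and 10.5% and 10.9% were in none. Over the RIP table these shares were 2.69% and 13.3%. The 8 genes in none, named after their values were seen, were Akap6, Chd3, Scn3b, Ak5, Tspyl1, Prrc2b, Kif21a and Lpar1. With the FDR limit, 19 of the 89 genes (21.3%) were in all 3 bone cancer pain lists and 27 (30.3%) were in none, against 0.565% and 76.8% over the RIP table. The share in all 3 was thus higher, and the share in none lower, for the 89 genes than over the RIP table, as a description with no test. The gene sets are unlike, because 9 of the 89 genes have no row in the RIP table. The first bone cancer pain list held 50417 peaks in 29130 genes, 97.4% of them at a single fold of 10.6 and a p-value of 0.037, and the files of that group carry a name other than that of the labels. Groups here follow the labels.

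Control and bone cancer pain lists were compared on 4 summary values, and none separated the groups by exact permutation tests (two-sided, n = 3 each, smallest possible p 0.1). Peaks with more than 1 exon block made up 53.6% ± 1.30 (SD) of a control list and 52.1% ± 1.59 of a list from the pain group (exact permutation p = 0.4, adjusted p = 0.533). The share of peak genes with a row in the RIP table was 84.9% ± 2.82 against 63.1% ± 33.8 (exact permutation p = 0.2, adjusted p = 0.533). The log2 median input signal of peak genes was 2.21 ± 0.18 against 1.98 ± 0.41 (exact permutation p = 0.6, adjusted p = 0.6). A list's genes were held by another list of its group in 34.2% ± 3.01 of cases against 60.03% ± 45.4 (exact permutation p = 0.4, adjusted p = 0.533). The wide spread in the pain group came with its first list, in which 24.2% of genes had a row in the RIP table. At the FDR limit the last share was 28.6% ± 1.5 for controls against 29.4% ± 1.6 (exact permutation p = 0.6), a difference smaller than the spread between lists.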

How the data were processed

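RNA of the dorsal horn was extracted with TRIzol, immunoprecipitated for ac4C with a kit and sequenced, per the labels' protocols. The submitters' processing notes name the genome build rn6 and, without roles, HISAT2 2.1.0, cutadapt 2.5, featureCounts 1.6.3, DESeq2 and HOMER 4.10.4. The sources used here do not name the peak caller. For each pair of libraries the authors deposited 1 peak list, so replicates were not pooled. Per the file headers, each peak has a gene identifier, exon blocks, a p-value, an IP over input ratio (the fold) and the log10 of the p-value and of its FDR. The authors' RIP table gives a normalised signal per library, of a unit its header does not state, and holds only genes past its authors' threshold.

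Peaks were used as deposited, with starts written 1-based, and joined to symbols by gene identifier in Python 3.11.15 with pandas 2.3.3 and numpy 2.4.6. Symbols that 29 sets of identifiers share were left out of the gene lists. Named genes were the first 25 named genes in 3 of 3 lists by their smallest fold, places shared by 3 lists, the 3 highest peaks of each list, and members of the gene lists and noncoding genes in at least 2 lists. Members and lists were chosen with earlier results of these data known. Tests were exact permutations over lists, and p-values measure only the spread between these lists, with Benjamini-Hochberg adjustment over 4 comparisons. The counting of lists and places was tested on simulated lists with planted answers. Alternatives were an FDR limit of 0.05, a fold of at least 10, lists of equal length, an overlap of 50%, peaks under 1 gene name, and leaving out each list. Transcript regions, lengths and sequences need an rn6 annotation and were not analysed here. Some items that the rule names are not reported here.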

Additional observations from a re-analysis of the deposited data

How the results depend on the processing

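Counts of recurrent genes depended on the threshold. The 89 genes in 3 of 3 lists became 50 at the FDR limit, 19 at a fold of at least 10 and 66 with lists of equal length. The 622 genes in at least 2 lists became 361, 241 and 478. The 14 places in 3 lists became 11, 3 and 14, and 13 with an overlap of 50% of the shorter peak. Counting genes in both remaining lists after leaving out each control in turn gave 224 to 300 genes and 60 to 74 places, fewer lists being the reason. Of the 25 genes ranked first by their folds, 16 stayed in 3 lists at the FDR limit, 17 at a fold of at least 10 and 18 with equal lengths. The log2 ratio of median folds lay between -0.83 (equal lengths) and -0.04 (fold of at least 10), and between -0.55 and -0.34 without 1 control. Against bone cancer pain, the difference in log2 median input (control minus bone cancer pain, 0.23) turned to -0.0089 at the FDR limit and -0.0123 without the first bone cancer pain list, and reached 0.369 without the third. The difference in the share of genes held by another list (-25.9 percentage points) ranged from -41.1 to 9.85, the latter without the first bone cancer pain list. The difference in genes with a RIP row ranged from 2.42 to 33.1 without 1 list and was 0.928 at the FDR limit. That in peaks of several exon blocks ranged from 0.614 to 2.18 without 1 list and was 0.499 at the FDR limit. Replicate numbers are shared by the groups in the labels, but same-numbered lists did not deviate together (r of -0.0086, 0.0036 and -0.0063 over 3805 genes at the FDR limit). With the replicate block, the differences stayed 1.48, 21.9, 0.23 and -25.9, with exact sign-flip permutation p of 0.75, 0.25, 0.5 and 0.5 (smallest possible 0.25). A planned comparison of protein length was not run because no protein table was used here. Depth is unknown, so a peak missing from a list may be one that was not detectable there.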

Other observations

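Biotypes were known only for genes with a row in the RIP table, so 528 of the 3231 control peak genes had none. A control peak was found in 2672 of 8420 protein-coding genes of the RIP table (31.7%), in 12 of 25 genes listed as processed transcripts (48%), in 10 of 59 pseudogenes and in 4 of 31 lincRNA genes. Besides Syne1, processed transcripts in 2 lists included Taf1, Astn1, Smg1, Top2b and Dock10. Dock10, a guanine nucleotide exchange factor, had folds of 73.5 in control 1 and 26.1 in control 2. Smg1, the kinase of nonsense-mediated decay, had 13.0 in control 2 and 11.2 in control 3, which are the commonest folds of those lists. The pseudogene AABR07067267.1 had peaks at the same place, chr9:37057667-37057846, in controls 1 and 2, with strongest folds of 13.4 and 6.52. Of the small RNA genes, 1 of 56 snoRNA genes (SNORA62, fold 4.01 in control 1) and 1 of 6 scaRNA genes (SCARNA2, fold 1.47 in control 1) had a peak, and none of 25 miRNA genes or 9 snRNA genes did.

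Mitochondrial RNA had 4, 3 and 1 peaks in controls 1, 2 and 3, at folds from 2.17 to 8.01. The 3 peaks of 1 gene without a symbol had the weakest evidence, with log10 p of -3.1, -1.78 and -2.97. Their FDRs were 0.114, 0.0794 and 0.0245, so only the last, in control 2, was under the FDR limit. The strongest in evidence were 3 peaks of control 1 with folds of 7.09, 3.08 and 3.41 and log10 p of -2740, -8400 and -4960. The mitochondrial ribosomal RNA genes each had a peak in 1 list, at a fold of 6.10 in control 2 and 4.54 in control 3. No mitochondrial place was shared by 2 controls.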
